A study of Mus musculus with 8 samples.

Results

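The mitochondrial ribosomal protein genes are the 77 rows, of 21878 gene symbols in the count table, whose symbol begins with Mrpl or Mrps and a number. Each of the 77 had at least 10 counts in all 8 samples, so all of them passed the filter of at least 10 counts in at least 4 samples that left 11718 genes for testing. The counts came from the peripheral blood of female wild-type C57BL/6 mice aged 6-8 weeks, 4 of them control and 4 stress mice. The stress group was held for 6 hours in a ventilated tube, without food or water. Food and water were withheld from the unrestrained control mice, which were littermates, for the same 6 hours, so fasting was common to both groups. Whole blood was sequenced without sorting, and in such samples fewer cells of a type and less RNA per cell cannot be told apart.

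The mitochondrial ribosome, or mitoribosome, sits in the mitochondrial matrix and translates the few proteins that mitochondrial DNA still encodes, all of them core subunits of the oxidative phosphorylation complexes. Its RNAs come from mitochondrial DNA, whereas all of its proteins are encoded in the nucleus, made in the cytosol and imported. Part of the proteins descend from bacterial ribosomal proteins and part are found only in mitochondria, and mature red cells, which lose their mitochondria, carry no mitoribosomes.

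Control samples held 31471145 to 39014775 counts and stress samples, without overlap, 25978683 to 29655725 (p = 0.0286 in a two-sided exact permutation test, the smallest that 4 samples against 4 allow). Haemoglobin genes took 51.9% to 63.8% of the control counts and 61.2% to 75.5% of the stress counts. Markers of the cell types of blood were present in every sample, and their levels moved between the groups: the median log2 fold change was 1.48 for 11 neutrophil markers, 1.51 for 8 classical monocyte markers, 0.99 for 8 platelet markers, 0.87 for 6 erythroid markers and -0.49 for 8 B cell markers, with 0.04 for 8 T cell and -0.21 for 8 NK cell markers. The summed level of the neutrophil list was 195 to 383 CPM (counts per library of 1000000, after TMM scaling) in control and 598 to 877 CPM in stress samples, that of the monocyte list 330 to 455 and 700.1 to 1219 CPM, that of the platelet list 1346 to 2025 and 3103 to 3739 CPM, that of the erythroid list 9055 to 25085 and 19140 to 41431 CPM, with overlap, and that of the B cell list 879 to 1095 and 622 to 803 CPM. The marker values are relative RNA levels and not cell counts. By flow cytometry of blood, the study counted more neutrophils after restraint, and fewer monocytes, B cells, T cells and NK cells. None of the markers tested was at 0 in any sample. Their part in any value below was not tested. Fold changes are from TMM scaling, which takes most genes as unchanged and gave a median log2 fold change of -0.03 over all tested genes, and scaling by total counts alone moved this median to -0.82. Stress replicate 3 had the lowest total, the highest haemoglobin share and the lowest TMM factor (0.507), and it was the highest of the 4 stress samples in 46 of the 77 members, so values without it are given where they matter.

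The 77 genes lie on 17 chromosomes in the GENCODE M21 annotation of GRCm38, with 10 on chromosome 11 and 8 on chromosome 17. A protein-coding gene starts head to head within 1000 bases of 18 of them. Of the 77, 45 share no exon base with another annotated gene, 27 overlap an exon of a gene on the opposite strand and 8 one on the same strand. Mrps6 shares exon sequence with Slc5a3 and Mrpl33 with Gm43809, so counts of these genes are uncertain where reads fall in shared exons. RefSeq lists 6 processed pseudogenes named after members, 3 of them after Mrps36.

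Promoters are shown for the one member that passed the test between the groups (Mrpl33), for Mrpl32, which had a fold change of the same size, and for the members with the highest and lowest fold change (Mrps6 and Mrps10). The sequences are the 250 bases before the start in RefSeq's annotation of GRCm38.p6, 5′ to 3′ on the gene's strand, and the Mrpl33 run goes on for 4 bases past the start to the end of a motif match that crosses it. Capitals mark matches, on either strand, to 3 short motifs: CCGGAAG, the core bound by GABPA (also called NRF2), CGCATGCG, the core bound by NRF1, and AAGATGGC, the core bound by YY1. These 3 factors are known as regulators of nuclear genes for mitochondrial proteins.
Mrpl33 (chr5:31613701-31613954, plus strand): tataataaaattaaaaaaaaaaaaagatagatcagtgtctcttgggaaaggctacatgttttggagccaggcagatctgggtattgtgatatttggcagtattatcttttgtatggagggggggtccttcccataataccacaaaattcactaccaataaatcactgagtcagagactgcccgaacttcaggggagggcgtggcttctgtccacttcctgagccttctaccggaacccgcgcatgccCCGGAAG
Mrpl32 (chr13:14613038-14613287, minus strand): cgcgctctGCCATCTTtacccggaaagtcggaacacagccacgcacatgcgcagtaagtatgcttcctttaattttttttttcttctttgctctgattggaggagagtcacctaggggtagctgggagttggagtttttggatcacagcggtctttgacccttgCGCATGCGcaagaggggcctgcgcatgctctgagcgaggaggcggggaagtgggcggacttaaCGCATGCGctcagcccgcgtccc
Mrps6 (chr16:92058086-92058335, plus strand): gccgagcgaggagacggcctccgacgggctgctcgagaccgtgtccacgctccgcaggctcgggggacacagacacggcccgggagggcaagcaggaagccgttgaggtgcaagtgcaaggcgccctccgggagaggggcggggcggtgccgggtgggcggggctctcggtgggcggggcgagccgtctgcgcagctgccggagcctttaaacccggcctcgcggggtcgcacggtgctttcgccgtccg
Mrps10 (chr17:47368947-47369196, plus strand): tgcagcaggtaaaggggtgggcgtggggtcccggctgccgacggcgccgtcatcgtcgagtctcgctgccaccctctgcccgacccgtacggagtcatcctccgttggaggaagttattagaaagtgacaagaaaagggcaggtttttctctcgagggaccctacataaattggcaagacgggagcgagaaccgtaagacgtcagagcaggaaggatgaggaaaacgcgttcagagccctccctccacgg

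Mrpl33 holds 1 GABPA core at its start, Mrpl32 holds 2 NRF1 cores and 1 YY1 core on the opposite strand, and Mrps6 and Mrps10 have none of these letters in the window. The Mrpl32 start lies 75 bases from the start of Psma2, a proteasome subunit gene on the opposite strand. Among members, 68 matched the promoter table, with 74 promoters of 300 bases (250 before and 50 from the start), and Mrpl4, Mrpl13, Mrpl15, Mrpl19, Mrpl38, Mrpl54, Mrps28, Mrps34 and Mrps35 were not matched. The GABPA core was in 33.8% of these promoters, against 8.86% of all 32851 promoters and 17.7% of the promoters of tested genes. The YY1 core was in 16.2%, against 2.75% and 4.53%, and the NRF1 core in 9.46%, against 1.87% and 3.91%. At least 1 of the 3 was in 50% of member promoters, against 12.6% of all and 24.0% of those of tested genes, and no matches overlapped each other. Of the 49 matches, 37 began from 60 bases before the start onward, including those after the start, a distance chosen after the positions were seen. Member promoters also had more G and C, with a median of 58.5% against 52.7% over all promoters. The 37 members with a match had log2 fold changes with a median of 0.11 and the 31 without one 0.03, and no test was made of that difference. The genes of the factors themselves had a log2 fold change of -0.15 for Gabpa (adjusted p = 0.339, edgeR, quasi-likelihood, Benjamini-Hochberg), 0.07 for Nrf1 (adjusted p = 0.788) and -0.02 for Yy1 (adjusted p = 0.899).

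The members had mean levels of 1.28 to 12.9 CPM, a range that held 5728 of the 11718 tested genes. Per kilobase of summed exon their median level was 1.68 CPM, against 1.78 CPM over all tested genes. The 77 genes together held 337, 357, 365 and 344 CPM in control replicates 1 to 4 and 329, 364, 436 and 343 CPM in stress replicates 1 to 4. The control mean was 351 ± 12.7 and the stress mean 368 ± 47.8 CPM (SD, n = 4 each), and the groups overlapped, with stress replicate 3 alone above the control range. Without TMM scaling the same genes were at 956 to 1346 CPM of the non-haemoglobin counts in control samples and at 786 to 972 in stress samples. The difference in the summed level thus took the other direction on that scale, with 1 stress sample inside the control range.

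Compared per length (CPM per kilobase of summed exon), the levels of the members spanned 21.4-fold. The highest were Mrpl34 at 8.19, Mrps23 at 6.35, Mrpl10, a protein of the stalk base, at 6.22 and Mrpl24, which lies near the exit of the peptide tunnel, at 5.73 CPM per kilobase. The lowest were Mrpl47 at 0.384, Mrps10 at 0.391 and Mrps25 at 0.414 CPM per kilobase. Their log2 fold changes lay between -0.62 (Mrps10) and 0.29 (Mrpl34), and none of these 7 passed the test (adjusted p from 0.0670 to 0.881, edgeR, quasi-likelihood, Benjamini-Hochberg). The order of the levels was close to the same in both groups (Spearman's rho 0.97 across the 77 genes, which share libraries and lengths). It depended on the length used: with the median transcript length the span was 20.04-fold, but the rho between the rankings was 0.54.

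Between the groups, the family lay close to the typical tested gene. At the study's thresholds (log2 fold change above 1 in size, adjusted p below 0.01), 0 of 77 members were higher in the stress group, where 1.69% of all tested genes were, and 0 were lower, where 0.0171% were. At an adjusted p below 0.05 with no fold threshold, 1 member rose (1.30%, against 10.4% of all tested genes) and 0 fell (against 3.69%). At that adjusted p DESeq2 called 4 members higher (12.2% of all its genes were) and limma-voom 2 (11.6% of all), and both called 0 lower, where 4.76% and 3.84% of all genes were. At an unadjusted p below 0.05, 7 members were higher (9.09%, against 18.2% of all tested genes) and 1 was lower (1.30%, against 13% of all). The samples of the groups did not overlap in 4 members that were higher (5.19%, against 11.1%) and 1 that was lower (1.30%, against 9.88%). By each of these rules without a fold threshold the share of members was below the share of all tested genes. Members were measured less precisely, with a median standard error of 0.20 against 0.17 over all tested genes. It was 0.18 over the tested genes within the members' range of mean CPM. Among the 5728 tested genes in the members' range of mean CPM, 449 were higher and 157 lower at an adjusted p below 0.05 (edgeR). Groups did not overlap in 472 of these that were higher and 441 that were lower.

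**Figure D1:**
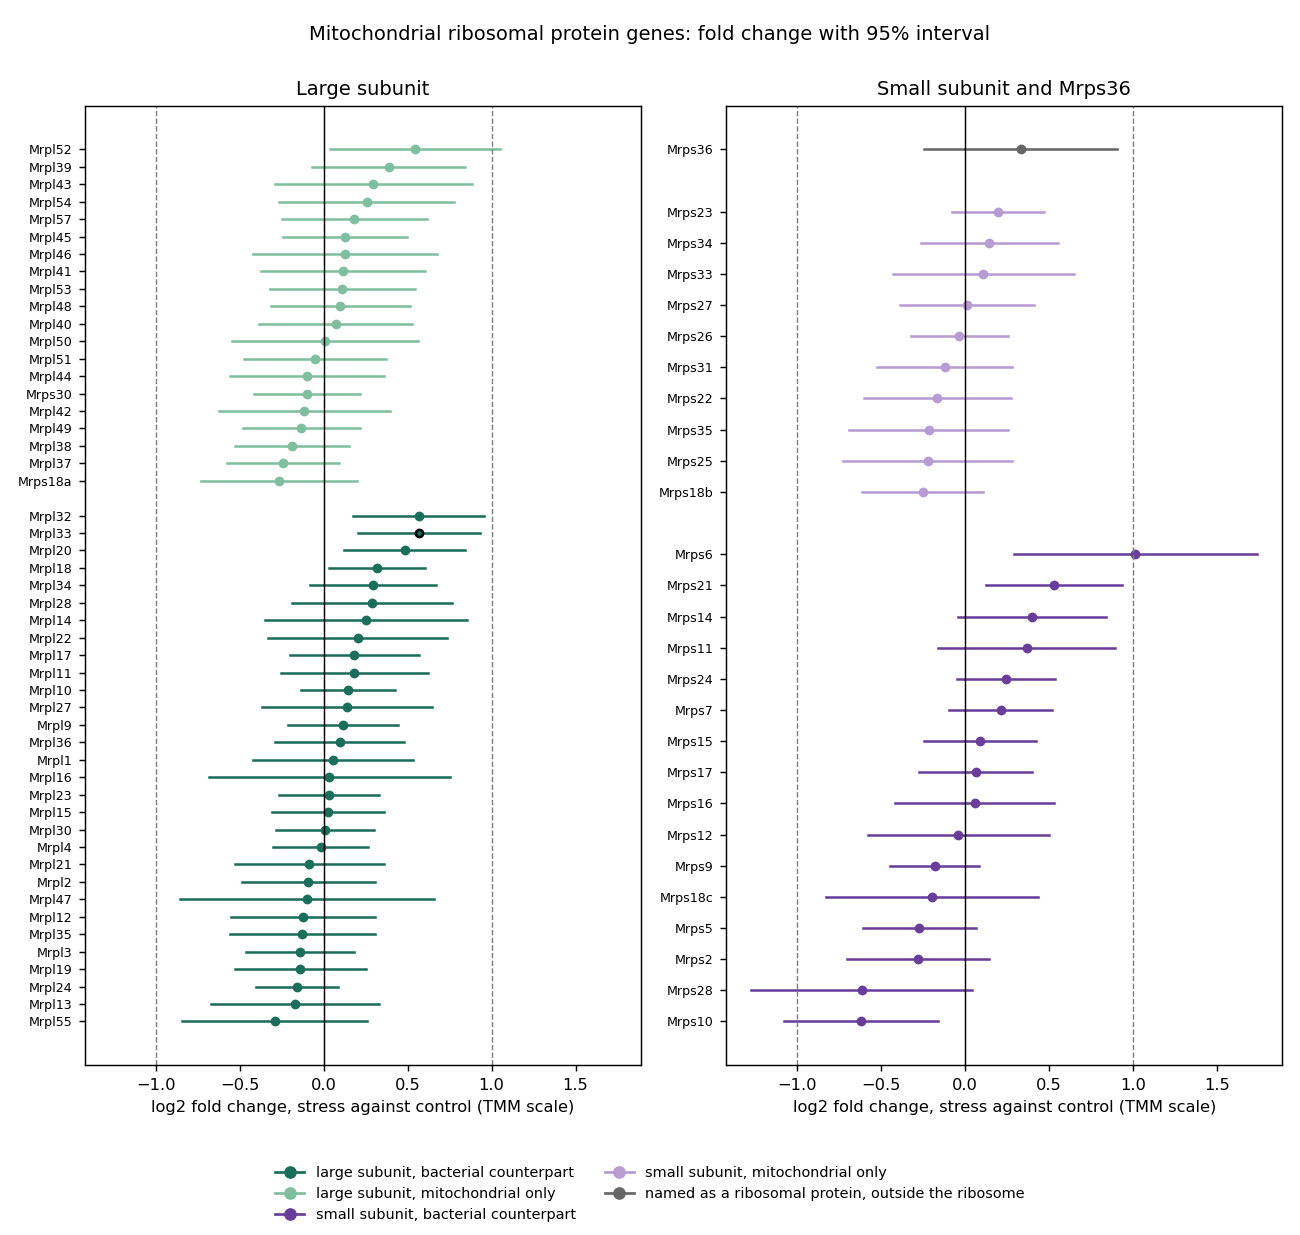
Log2 fold change of the stress group against the control group (horizontal axis, TMM scale) for each of the 77 members, with its 95% interval (n = 4 samples a group), grouped by subunit and by whether the protein has a bacterial counterpart. The black rim marks Mrpl33, the one member past an adjusted p of 0.05, and the dashed lines mark a 2-fold change, which the intervals of 73 members do not reach. On total counts alone every value but that of Mrps6 is below 0.

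The median log2 fold change of the members was 0.06 (quartiles -0.13 and 0.20, range -0.62 to 1.01), with 45 genes above 0 and 32 below. Across all 11718 tested genes, 5519 were above 0 and 6199 below. The members' standard errors ran from 0.11 to 0.35, with a median of 0.20. Of the members, 90.9% had a log2 fold change within 0.5 of 0, against 77.1% of all tested genes. The 95% interval lay inside a 2-fold change either way in 73 of 77 members (94.8%), against 73.6% of all tested genes and 82.8% of the 5728 tested genes with a mean level in that range of CPM. The 4 members whose interval reached a 2-fold change were Mrps6, Mrpl52, Mrps10 and Mrps28. Without stress replicate 3 the median was -0.05, with 34 members above 0. The members' median on total counts alone was -0.78, close to the -0.82 of all tested genes. On that scale 33 members (42.9%) were lower at an adjusted p below 0.05 and 0 higher, against 49.6% and 0.444% of all tested genes (edgeR).

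Mrpl33, a small protein of the large subunit with a bacterial counterpart, was the one member that rose. Its levels were 2.91, 4.10, 3.35 and 3.75 CPM in control replicates 1 to 4 and 4.46, 4.87, 5.46 and 6.12 CPM in stress replicates 1 to 4. Every stress sample was above every control sample. The mean went from 3.53 ± 0.515 to 5.23 ± 0.721 CPM (SD, n = 4 each), a log2 fold change of 0.57 (SE 0.17, 95% interval 0.21 to 0.93, adjusted p = 0.0403, edgeR, quasi-likelihood, Benjamini-Hochberg). The gene spans chr5:31596935-31664384, and its counts ran from 72 to 232 per sample. The call was lost when control replicate 1, 2 or 3 or stress replicate 2, 3 or 4 was left out, with a log2 fold change of 0.48 to 0.65 in those fits and adjusted p of 0.0504 to 0.111. Its value was -0.21 on total counts alone.

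Mrpl32 also has a bacterial counterpart and is cleaved by the mitochondrial m-AAA protease before it joins the large subunit. Its levels were 4.95, 5.92, 5.74 and 8.11 CPM in the control group and 8.65, 8.54, 12.2 and 7.49 CPM in the stress group (replicates 1 to 4). Stress replicate 4 lay below control replicate 4, so the groups overlapped. The log2 fold change was 0.57 (SE 0.18, adjusted p = 0.0522, edgeR, quasi-likelihood, Benjamini-Hochberg), and 0.43 without stress replicate 3 (adjusted p = 0.107). It passed with DESeq2 (adjusted p = 0.0363) and limma-voom (adjusted p = 0.0477). This gene, Mrps6 and Mrpl52 were chosen for description after their values were seen. Mrpl52, found only in mitochondria, had 3.45, 3.02, 3.31 and 2.74 CPM in the control group and 3.43, 4.50, 7.44 and 3.39 CPM in the stress group (log2 fold change 0.54, adjusted p = 0.132). Its value was 0.28 without stress replicate 3, the sample far above the others.

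Mrpl20 and Mrpl18, both with bacterial counterparts, had groups that did not overlap but did not pass the adjusted test. Mrpl20 had 3.26, 4.10, 3.74 and 3.72 CPM in the control group and 6.65, 4.50, 4.71 and 4.87 CPM in the stress group (log2 fold change 0.48, SE 0.17, adjusted p = 0.0698). It was past the threshold with DESeq2 (adjusted p = 0.0471). Mrpl18, in the central protuberance, had 5.41, 5.92, 6.48 and 5.36 CPM in the control group and 7.58, 6.49, 7.97 and 7.01 CPM in the stress group (log2 fold change 0.32, SE 0.13, adjusted p = 0.121). Mrpl32, Mrpl52, Mrpl20 and Mrpl18 all had values below 0 on total counts alone, from -0.50 to -0.25.

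In the small subunit, Mrps6 had the highest fold change of the family. Its levels were 0.897, 1.04, 1.03 and 1.39 CPM in the control group and 1.74, 2.04, 4.02 and 1.28 CPM in the stress group, with stress replicate 3 highest and stress replicate 4 inside the control range. The log2 fold change was 1.01 (SE 0.34, 95% interval 0.29 to 1.74, adjusted p = 0.0607, edgeR, quasi-likelihood, Benjamini-Hochberg) and 0.64 without stress replicate 3 (adjusted p = 0.162). DESeq2 gave an adjusted p of 0.0284. The gene spans chr16:92058270-92112227, had 33 to 71 counts per sample, and its value was 0.12 on total counts alone. Mrps21, the counterpart of bacterial S21, had 3.32, 3.41, 2.76 and 4.04 CPM in the control group and 4.19, 4.87, 6.45 and 4.16 CPM in the stress group. The groups did not overlap, with a log2 fold change of 0.53 (SE 0.19, adjusted p = 0.0741) that was -0.28 on total counts alone.

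Mrps10 and Mrps28 had the lowest fold changes. Mrps10, the counterpart of bacterial S10, had 4.05, 4.14, 4.10 and 3.06 CPM in the control group and 1.87, 2.13, 2.50 and 3.43 CPM in the stress group. Control replicate 4 lay below the other control samples and stress replicate 4 above it, so the groups overlapped (log2 fold change -0.62, SE 0.21, adjusted p = 0.0670). Without stress replicate 4 the value was -0.84 (adjusted p = 0.0193, edgeR, quasi-likelihood, Benjamini-Hochberg). Mrps28 had 13 to 133 counts per sample and was the member nearest to the count filter, with its fourth-highest count at 43. Its levels were 1.17, 1.53, 1.92 and 1.55 CPM in the control group and 0.580, 1.35, 1.21 and 0.960 CPM in the stress group (log2 fold change -0.61, SE 0.31, adjusted p = 0.188). Mrps9, the counterpart of bacterial S9, was lower in every stress sample (6.07, 5.71, 6.22 and 6.53 CPM) than in every control sample (6.63, 7.31, 7.08 and 6.75 CPM), but by a log2 fold change of -0.18 (adjusted p = 0.341).

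**Figure D2:**
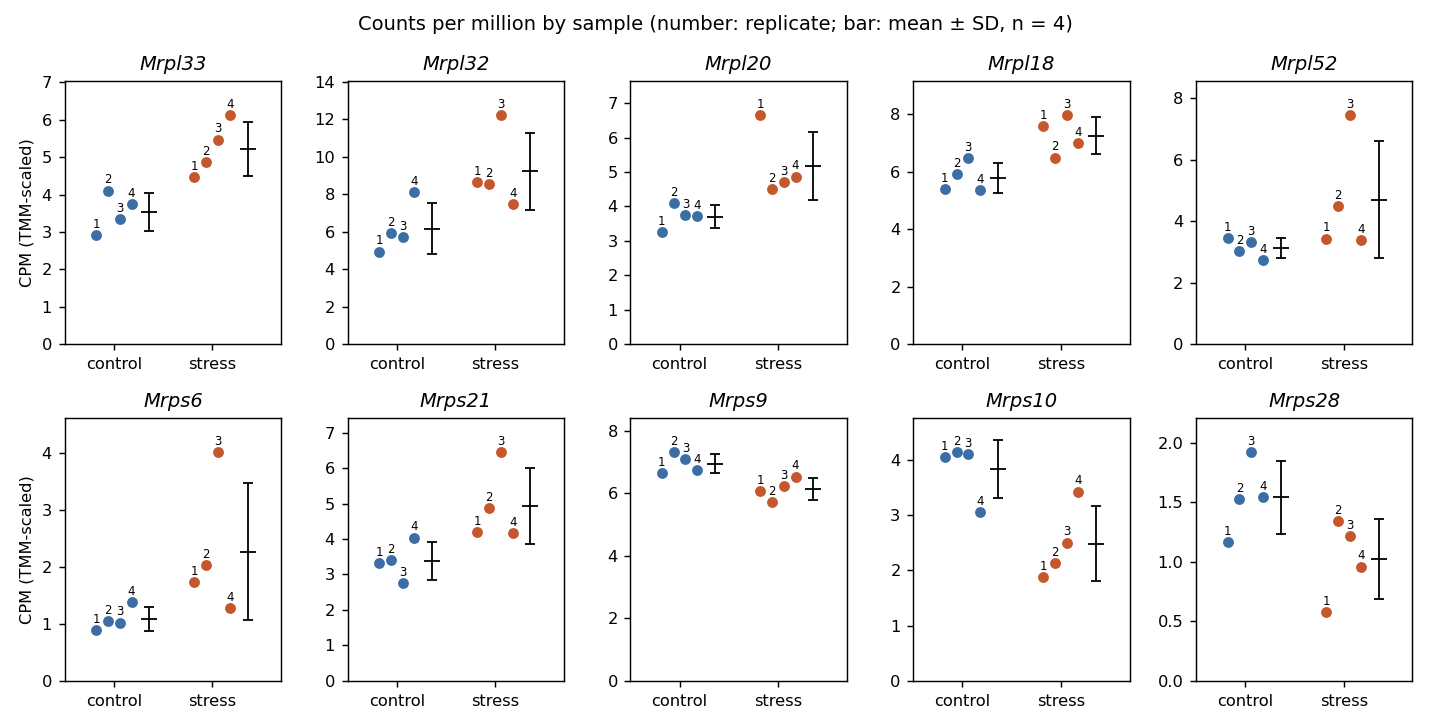
CPM (vertical axis, TMM-scaled, from 0) of 10 members in the 4 control (blue) and 4 stress (orange) samples, each point numbered by its replicate, with the mean ± SD (n = 4) as a black bar. Groups do not overlap in Mrpl33, Mrpl20, Mrpl18, Mrps21 and Mrps9, and stress replicate 3 stands highest in Mrpl32, Mrpl52, Mrps6, Mrps21 and Mrpl18. The values of the higher members other than Mrps6 are below 0 on total counts alone.

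By subunit and origin the medians stayed near that of all tested genes. The 30 large subunit members with a bacterial counterpart had fold changes with a median of 0.05 on the log2 scale (19 above 0), and the 20 found only in mitochondria 0.09 (12 above 0). The 16 small subunit members with a bacterial counterpart had a median of 0.06 (9 above 0) and the 10 found only in mitochondria -0.08 (4 above 0). These medians were, on total counts alone, -0.78, -0.77, -0.75 and -0.89. Of the related Mrps18a, Mrps18b and Mrps18c, only Mrps18c was counted as having a bacterial counterpart, so the split is a matter of assignment for these genes. Within the large subunit the median was 0.14 for the 3 stalk proteins, 0.10 for 7 proteins of the central protuberance and 0.08 for 8 at the exit tunnel. No member of these 3 groups passed the adjusted test. A chosen list of 14 members in which variants are known to cause mitochondrial disease in humans had a median of -0.11, with 6 above 0. In this list, which may not hold every such gene, 0 were past an adjusted p of 0.05 (edgeR, 0 at an unadjusted p below 0.05). Of all tested genes, 10.4% were higher and 3.69% lower at an adjusted p below 0.05 (edgeR). At an unadjusted p below 0.05 these shares were 18.2% and 13%.

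The summed level of the large subunit averaged 238 ± 10.4 CPM over control samples and 252 ± 36.1 CPM over stress samples (SD, n = 4 each), and that of the small subunit was 111 ± 2.14 and 114 ± 12.1 CPM. The ratio of the small to the large subunit, which does not depend on the scaling, was 0.484, 0.469, 0.451 and 0.468 in control replicates 1 to 4 and 0.440, 0.473, 0.424 and 0.483 in stress replicates 1 to 4. Its control mean was 0.468 ± 0.0134 and its stress mean 0.455 ± 0.0276 (SD, n = 4 each), a difference smaller than the spread within the stress group. The lowest ratio was again in stress replicate 3.

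**Figure D3:**
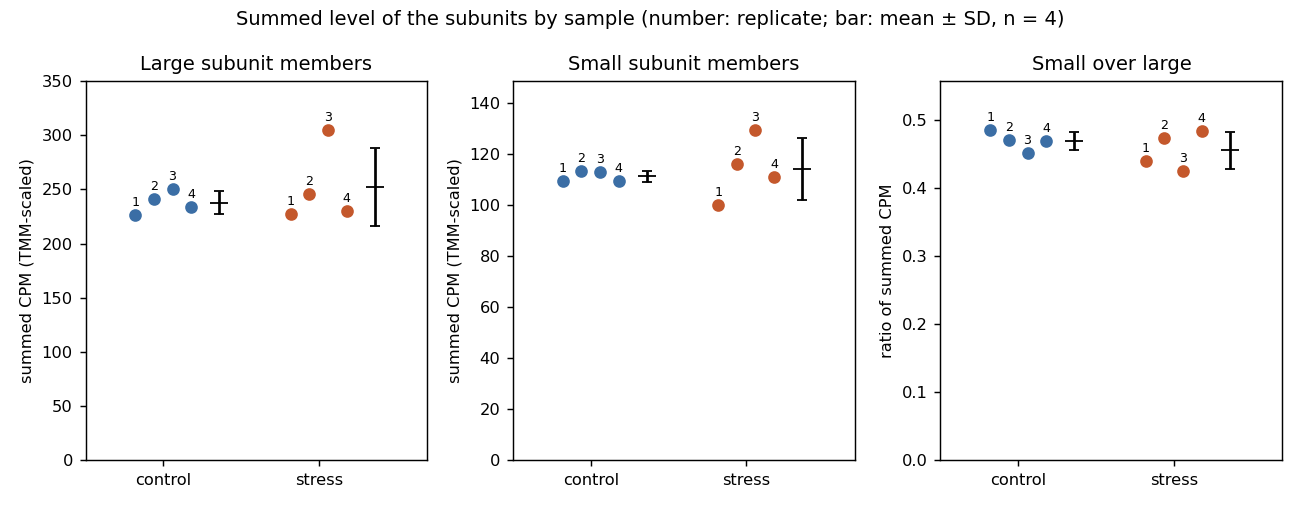
Summed CPM (TMM-scaled, from 0) of the 50 large subunit members and the 26 small subunit members, and the ratio of the sums, in each of the 4 control (blue) and 4 stress (orange) samples, with the mean ± SD (n = 4) as a black bar. Stress replicate 3 is above all other samples in both sums, at 305 and 129 CPM, and the groups overlap in all 3 panels.

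For the members picked for their known role, the 95% interval of every fold change held 0. Mrpl12, a stalk protein that also binds the mitochondrial RNA polymerase, had a log2 fold change of -0.12 (95% interval -0.55 to 0.31), and Mrps12, at the decoding centre, -0.04 (-0.58 to 0.50). Mrpl3, the counterpart of bacterial L3, had -0.14 (-0.46 to 0.18), Mrpl44, which has the fold of an RNase III, -0.10 (-0.56 to 0.36), Mrps16 0.06 (-0.42 to 0.53) and Mrps22, found only in mitochondria, -0.16 (-0.60 to 0.28). Several symbols do not tell the place of the protein. Mrps18a and Mrps30 are built into the large subunit in spite of their names and had -0.27 (-0.73 to 0.20) and -0.10 (-0.42 to 0.22). Mrps18b and Mrps18c, the small subunit relatives of Mrps18a, had -0.25 (-0.61 to 0.11) and -0.19 (-0.82 to 0.43). Mrps36 is a subunit of the 2-oxoglutarate dehydrogenase complex rather than of the ribosome, and had 0.33 (-0.24 to 0.91). Ict1, the older symbol of Mrpl58, a peptidyl-tRNA hydrolase built into the large subunit that the naming rule does not take in, had -0.16 (-0.60 to 0.28). The adjusted p of these 12 genes ran from 0.327 to 0.937 (edgeR, quasi-likelihood, Benjamini-Hochberg).

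The other genes of mitochondrial translation were compared by count and median, from lists chosen with earlier results of these data known. The 5 mitoribosome proteins with other names (Dap3, Ptcd3, Aurkaip1, Gadd45gip1 and Chchd1) had a median log2 fold change of 0.10 and none passed at an adjusted p below 0.05 in edgeR, nor at an unadjusted p below 0.05. Of all tested genes, 10.4% were higher and 3.69% lower by the first rule, and 18.2% and 13% by the second. Among 25 assembly and rRNA modification factors, 8 were above 0 and 17 below (median -0.07), and 2 fell (8% of the list, against 3.69% of all tested genes). Mtg1, a GTPase of large subunit assembly, had 3.80, 3.06, 3.69 and 3.66 CPM in the control group and 2.10, 2.37, 1.21 and 2.40 CPM in the stress group. These groups did not overlap, with a log2 fold change of -0.78 (SE 0.21, adjusted p = 0.0286, edgeR, quasi-likelihood, Benjamini-Hochberg) and -0.61 without stress replicate 3 (adjusted p = 0.0410). Mettl17, a factor of small subunit assembly, had 10.2, 7.95, 10.4 and 8.23 CPM in the control group and 4.86, 5.43, 8.65 and 5.86 CPM in the stress group (log2 fold change -0.59, SE 0.18, adjusted p = 0.0402). Here stress replicate 3 lay inside the control range, and the value was -0.75 without it (adjusted p = 0.00588). The Mtg1 call was lost without control replicate 1, 2, 3 or 4 or stress replicate 1 (adjusted p up to 0.0804), and the Mettl17 call without any of the 4 control samples or without stress replicate 1, 2 or 4 (adjusted p up to 0.130), while both values stayed below 0.

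Of 17 translation factors 5 were above 0 and 12 below (median -0.10), with 0 past the adjusted test in either direction (edgeR, 0 higher and 1 lower at an unadjusted p below 0.05). Tufm, the elongation factor that brings tRNAs to the mitoribosome, was at 0.12. The list of mitochondrial aminoacyl-tRNA synthetases, which charge the tRNAs, also took in Qrsl1, Gatb and Gatc, which are not synthetases. Of its 20 genes, 3 were above 0 and 17 below (median -0.22). Again 0 passed the adjusted test (edgeR, 2 higher and 4 lower at an unadjusted p below 0.05), the lowest being Mars2 at -0.59 (adjusted p = 0.0663) and the highest Fars2 at 0.62 (adjusted p = 0.0679). The 15 genes of mitochondrial transcription and its regulators had a median of -0.15, with 4 above 0 and 0 past the test (edgeR, 0 at an unadjusted p below 0.05). Without any threshold, 5519 of all 11718 tested genes were above 0 and 6199 below. Beside these 3 lists, 10.4% of all tested genes were higher and 3.69% lower at an adjusted p below 0.05 (edgeR). At an unadjusted p below 0.05 these shares were 18.2% and 13%. The 13 protein genes and 2 rRNA genes of mitochondrial DNA were looked for by symbol, and 0 were found in the count table. The mitoribosome's own rRNAs and the proteins it makes were therefore not analysed.

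The cytosolic ribosome and the oxidative phosphorylation complexes, which the mitoribosome's products join, are the gene families closest to the members in kind, and most of their fold changes were above 0 with TMM scaling. Across all 11718 tested genes, 5519 were above 0. Of 83 tested cytosolic ribosomal protein genes 76 were above 0 (median 0.22), with 3 higher (3.61%, against 10.4% of all tested genes) and 1 lower (1.20%, against 3.69%) at an adjusted p below 0.05. Without stress replicate 3 this median was 0.07, with 60 above 0 and 1 gene higher at that adjusted p, and with an offset for length it was 0.05. Among them, Rps29 rose by 1.10 on the log2 scale (SE 0.27, adjusted p = 0.0202) and Rplp2 by 0.80 (SE 0.24, adjusted p = 0.0417), and Rps27 fell by 1.53 (SE 0.43, adjusted p = 0.0356). The Rps29 call was lost without control replicate 2 or 3 or stress replicate 2, the Rplp2 call without control replicate 1, 2 or 3 or stress replicate 2 or 3, and the Rps27 call without any sample but control replicate 4 (adjusted p up to 0.0652, 0.125 and 0.150, edgeR). In Rps27 control replicate 4 was at 8.83 CPM and the other control samples at 46.7 to 57.8 CPM. These genes have many near-identical pseudogenes, so their counts are uncertain. Of 77 tested nuclear oxidative phosphorylation genes 66 were above 0 (median 0.35), with 13 higher (16.9%, against 10.4% of all tested genes) and 1 lower (1.30%, against 3.69%) at an adjusted p below 0.05 (edgeR, quasi-likelihood, Benjamini-Hochberg). Without stress replicate 3 the median was 0.22 with 6 genes higher (7.79%, against 9.73% of all genes tested in that fit), and with the length offset 0.14 with 7 higher (9.09%, against 9.90%). Cox5a, a subunit of cytochrome c oxidase, rose by 0.91 (SE 0.17, adjusted p = 0.00379) and Ndufa4 by 0.76 (SE 0.17, adjusted p = 0.0107), whereas Atp5sl fell by 0.40 (SE 0.12, adjusted p = 0.0458). Atp5sl was the 1 lower gene of this list, which took it in by its symbol, and it is not a subunit of these complexes. The Atp5sl call was lost without any of the 4 control samples or without stress replicate 1 or 2 (adjusted p up to 0.136), while those of Cox5a and Ndufa4 held in every fit with 1 sample left out. No rise of the 4 genes held on total counts alone, where Rps29 was at 0.19 (adjusted p = 0.641), Rplp2 at -0.051 (adjusted p = 0.881), Cox5a at 0.082 (adjusted p = 0.847) and Ndufa4 at -0.063 (adjusted p = 0.882, edgeR). On total counts alone the medians were -0.64 for the cytosolic ribosome, -0.50 for oxidative phosphorylation and -0.78 for the members.

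The summed level of the members per unit of the summed oxidative phosphorylation level, which does not depend on the scaling, was 0.247, 0.283, 0.304 and 0.216 in control replicates 1 to 4 and 0.187, 0.195, 0.173 and 0.233 in stress replicates 1 to 4. The control mean was 0.262 ± 0.0389 and the stress mean 0.197 ± 0.0253 (SD, n = 4 each). The groups overlapped, since stress replicate 4 lay above control replicate 4. Per unit of the summed cytosolic ribosomal level the means were 0.0245 ± 0.00193 and 0.0211 ± 0.00298, again with overlap.

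**Figure D4:**
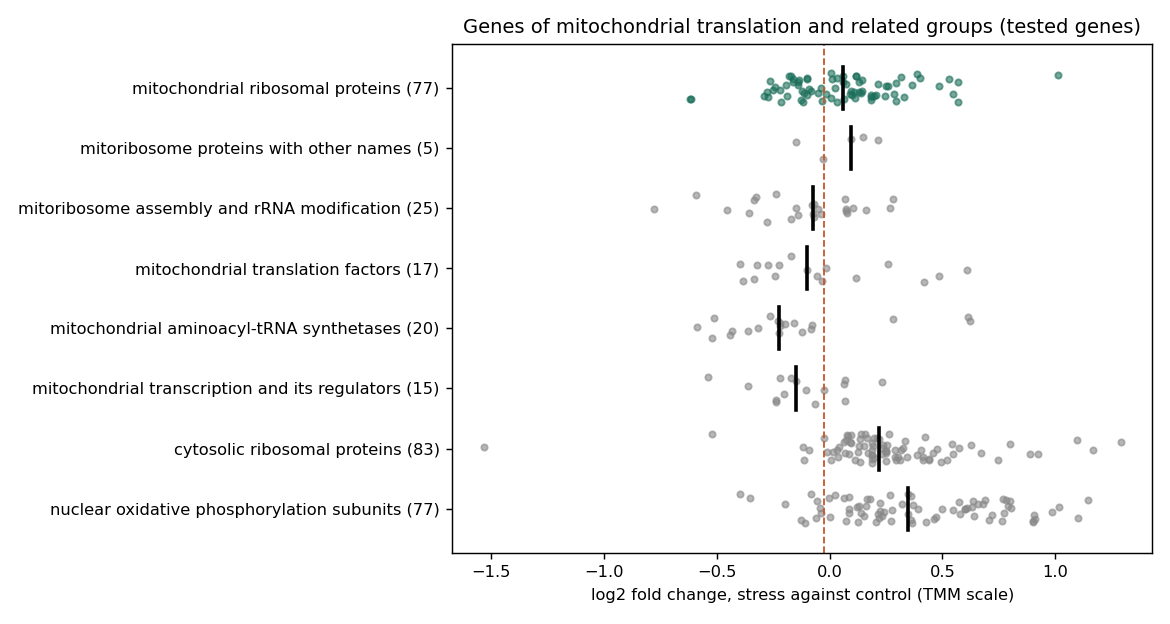
Log2 fold change of the stress group against the control group (horizontal axis, TMM scale) for each tested gene of 8 gene groups, with the number of genes in brackets, the median of each group as a black line and the median of all tested genes (-0.03) as a dashed line. The members' median of 0.06 lies between -0.22 for the aminoacyl-tRNA synthetase list, which includes Qrsl1, Gatb and Gatc, and 0.35 for oxidative phosphorylation. On total counts alone all of these medians are below 0.

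Members with less annotated exon sequence tended to have higher fold changes, as did all tested genes. Across the 77 members, Spearman's rho between the log2 fold change and the summed exon length was -0.36, against -0.25 across 11614 tested genes with a length, as a description of genes that share the same libraries. With the median transcript length in place of the summed exons, an alternative chosen after seeing the data, it was -0.21 in the members and -0.13 in all genes. The 26 members with an exon length of at most 1665 bases had a median log2 fold change of 0.20, the 25 in between 0.07 and the 26 above 3280 bases -0.12. In all tested genes the medians of the same 3 classes were 0.22, 0.08 and -0.08. Members were shorter than the typical tested gene, with a median exon length of 2255 against 4514.5 bases. Without stress replicate 3 the rho was -0.29 in the members and -0.14 in all genes, and the medians of short and long members were 0.07 and -0.14. With an offset for length in each sample, the members' median was -0.07 with 27 above 0 and their rho with exon length turned to 0.19, while that of all genes was 0.02. In that fit Mrpl33 was at 0.65 (adjusted p = 0.0221, edgeR, quasi-likelihood, Benjamini-Hochberg), and the value of Mrps21, one of the shortest members, went from 0.53 to 0.15. The offset took Mrpl33 as a long gene, by its summed exons of 7326 bases, whereas its median transcript length was 773 bases. An offset by transcript length was not fitted, so the Mrpl33 value of this fit depends on the length chosen. The part of length in the fold changes was not tested beyond this offset.

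**Figure D5:**
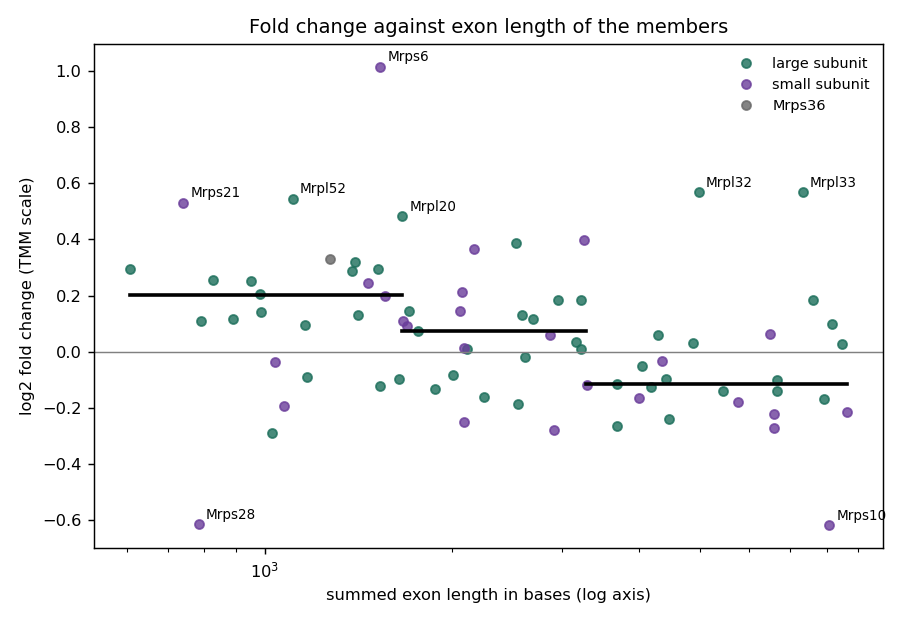
Log2 fold change (vertical axis, TMM scale) of each of the 77 members against its summed exon length in bases (horizontal log axis), coloured by subunit, with the median of each length class as a black line. The medians step from 0.20 in the short class to 0.07 and -0.12, and Mrpl33 and Mrpl32 are above 0.5 in the class with the longest summed exons. The median transcript length of Mrpl33 is 773 bases. On total counts alone every value but that of Mrps6 is below 0.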

How the data were processed

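RNA from peripheral blood, 1 library per mouse, was made with an Illumina TruSeq kit. The authors deposited 1 table of raw read counts per gene symbol, without normalization. The submitters' processing notes name HISAT2, featureCounts and mm10, while the annotation and the use of strand are not given in the sources used here. Genes that reached 10 counts in 4 or more samples were fitted with edgeR 4.0.16 in R 4.3.3 (TMM, robust quasi-likelihood test, group as the single term), with Benjamini-Hochberg adjustment over 11718 genes. CPM values use the TMM-scaled library size, and 95% intervals come from the fit. Lengths, positions and overlaps come from GENCODE M21 (all 77 members matched) and promoters from RefSeq. Intervals and tests measure the spread between samples, which carry only replicate numbers in the labels. Depth limits the precision, since the median member had 71 to 123 counts in a stress library and 122 to 292 in a control library.

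Named genes were the members past either threshold, the 4 highest and 3 lowest per length, up to 5 in each direction with groups that do not overlap, a fixed set with known roles, the member nearest to the count filter and up to 2 genes in each direction past the test in each related list. The members and the lists were chosen with earlier results of these data known. Alternatives were DESeq2 1.42.0, limma-voom (limma 3.58.1), RLE, upper quartile or total-count scaling, other count filters, leaving out haemoglobin genes, a replicate block, a length offset (lowess, span 0.3) and leaving out each sample. On simulated counts for 11563 genes of the stress against control comparison, 79 of 97 genes changed 2-fold (log2 fold change 1) and 92 of 98 with a log2 fold change of 2 were recovered. At the same adjusted p below 0.05, 7 unchanged genes passed. The changed genes were drawn from all levels, and recovery of changes below 2-fold, where most members lay, was not simulated. No samples were duplicates.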

Additional observations from a re-analysis of the deposited data

Results flagged for a closer look

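In Mrpl20, stress replicate 1 stood at 6.65 CPM, above the 4.50 to 4.87 CPM of the other stress samples by a gap that took more of the group's range than Dixon's limit allows. Without it the log2 fold change was 0.36 instead of 0.48. In Mrps10, control replicate 4 stood at 3.06 CPM, below the 4.05 to 4.14 CPM of the other control samples, and the log2 fold change without it was -0.68. Chance sets apart about 1 in 20 such groups of 4, and 22 were looked at.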

How the results depend on the processing

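The result that 0 members were higher at the study's thresholds held under every one of the 18 alternatives. 1 member was lower on total counts alone (Mrps10). At an adjusted p below 0.05 the number of higher members was 1 with TMM and 4 with DESeq2, 2 with limma-voom, without a count filter and with the length offset, 0 on total counts alone and 0 with the replicate block (Mrpl33, adjusted p = 0.0593). Leaving out 1 sample gave 0 to 2: it was 0 without control replicate 1, 2 or 3 or stress replicate 2 or 3, and 2 without control replicate 4 (Mrpl32 and Mrpl33) or stress replicate 4 (Mrpl32 and Mrps6). The number of lower members was 33 on total counts alone, 1 with the length offset (Mrps28) and 0 to 1 with 1 sample left out (Mrps10, without stress replicate 4). The cause of these changes was not tested.

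On total counts alone, where the median of all genes was -0.82, the medians were -0.78 for the members, and -0.78, -0.77, -0.75 and -0.89 for large bacterial, large mitochondrial, small bacterial and small mitochondrial members. The related lists, whose alternatives were added after seeing the data, had medians there of -0.74 (other mitoribosome proteins), -0.93 (assembly), -0.92 (translation factors), -0.99 (synthetases), -0.93 (transcription), -0.64 (cytosolic ribosome) and -0.50 (oxidative phosphorylation). With the length offset those of the other mitoribosome proteins and oxidative phosphorylation were -0.070 and 0.14, and without stress replicate 3 that of assembly was -0.20. With 1 sample left out the medians of the members and of their 4 groups ran from -0.05 to 0.15, -0.04 to 0.15, -0.07 to 0.17, 0.03 to 0.15 and -0.10 to 0.01. The signs of single genes also changed on total counts alone: Mrpl33 -0.21, Mrps21 -0.28, Mrpl20 -0.31, Mrpl18 -0.50, Mrpl32 -0.25, Mrpl52 -0.34, Mrpl34 -0.53, Mrps23 -0.61, Mrpl10 -0.68, Mrps16 -0.76, Mrps36 -0.53, Rplp2 -0.051 and Ndufa4 -0.063. With the length offset Mrpl34 was at -0.13, Mrpl10 at -0.025 and Mrps16 at -0.019, with limma-voom Mrps16 was at -0.024, and with the replicate block Mrpl47 was at 0.0042. With 1 sample left out the sign changed in Mrpl47 (-0.30 to 0.11), Mrpl12 (-0.30 to 0.024), Mrps12 (-0.23 to 0.16), Mrpl44 (-0.20 to 0.070), Mrps16 (-0.12 to 0.28), Mrps18c (-0.51 to 0.042) and Mrps30 (-0.17 to 0.032). None of these genes passed the test with TMM, except Mrpl33, Rplp2 and Ndufa4. Samples with the same replicate number did not deviate together (correlations -0.16 to 0.06), so the numbers were not taken to pair them. With the block the calls of Mtg1, Rps29, Rplp2, Rps27 and Atp5sl were lost too. Over all 18 alternatives the result was weaker in 12 for Rps27, in 8 for Atp5sl and in 7 for Mettl17. It was weaker in 6 for each of Mtg1, Rps29 and Rplp2.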
